A study of Mus musculus with 16 samples.

Results

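The natriuretic peptide system was followed through its 8 genes in 16 RNA-seq libraries from mouse heart and liver. The genes are the peptides Nppa, Nppb and Nppc, the receptors Npr1, Npr2 and Npr3, and the processing proteases Corin and Furin. They were taken by symbol from a count table of 48709 Ensembl genes, and all 8 were in it. The 4 groups were heart of Msr quadruple knockout mice (QKO), heart of wild-type mice (WT), liver of QKO mice and liver of WT mice, with 4 libraries each. QKO mice lack the methionine sulfoxide reductases, enzymes that return oxidised methionine to methionine. The labels do not say which part of each reductase gene was deleted, and reads outside a deleted part do not check the label. All animals were untreated C57BL/6J females aged 3 to 6 months, and the 8 animals gave a heart and a liver each. The study contrasts the genotypes within each tissue. The chambers taken with the heart are not given.

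Natriuretic peptides are hormones that lower blood volume and pressure. Heart muscle makes atrial natriuretic peptide (ANP, from Nppa) mainly in the atria and B-type natriuretic peptide (BNP, from Nppb) in both chambers, and the ventricle makes more of both under load. Each peptide is cut from a longer precursor, then binds a receptor whose inner domain makes cyclic GMP, or a clearance receptor that takes it up for degradation. C-type natriuretic peptide (CNP, from Nppc) is a local signal of endothelium, brain and growing bone. In liver, the receptors have been described on vessels and other non-parenchymal cells.

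Total counts ran from 42.1 to 72.6 M (M, 1000000 counts) per heart library and from 37.9 to 67.9 M per liver library, but protein-coding genes held 9.21 to 28.2 M in heart and 21.6 to 40.7 M in liver. The heart marker Myl2 was at 2645 to 3126 CPM (counts per 1000000) in QKO hearts and 2624 to 2985 CPM in WT hearts. The 8 cardiomyocyte markers summed to 42748 to 49485 CPM in QKO hearts and 33223 to 41732 CPM in WT hearts, on protein-coding counts. All 8 lay above 0 in QKO over WT hearts, 3 with an unadjusted p under 0.05 by edgeR, and 0 passed. Their part in the heart values below was not tested. The 8 hepatocyte markers summed to 100149 to 128088 CPM in QKO livers and 97831 to 113921 CPM in WT livers. The same sum was at most 590 CPM in QKO hearts and 1088 CPM in WT hearts. In QKO hearts, Msrb2 and Msrb3 fell by 6.40 and 2.62 on the log2 scale and Msra fell by 0.52, while Msrb1 rose by 0.48 (edgeR quasi-likelihood test, adjusted p 4.71e-11, 4.71e-11, 0.0263 and 0.0337). In QKO livers Msrb2 and Msrb3 fell by 7.04 and 1.99 (adjusted p 2.87e-05 and 0.00194), while Msra (log2 -0.72, edgeR adjusted p = 0.0867) and Msrb1 (log2 -0.39, edgeR adjusted p = 0.9997) did not pass. On protein-coding counts, 6 pancreatic acinar markers summed to 1004 CPM in WT liver 3 and 282 CPM in WT liver 4. A sum of 6 skeletal muscle markers was 442 CPM in WT liver 4. The other WT livers were at most at 1.21 and 1.25 CPM for these sums, and QKO livers at most at 1.26 and 30.2 CPM. WT liver 4 was also the lowest WT liver for Npr1, Npr2 and Npr3, while WT liver 3 was the highest WT liver for each of them. The part of other tissue in this was not tested. In these bulk tissues, fewer cells of a type and less RNA per cell cannot be told apart.

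The peptide genes lie side by side on chromosome 4 of the mouse genome build GRCm38. Nppb covers chr4:147985788-147987205 and Nppa chr4:148000722-148002079, both on the plus strand, with 13516 bases between them. The 250 bases before their starts are shown because both genes are heart genes read from the same strand, beside the promoter of Corin (chr5:72300025-72504473, minus strand), a protease gene that was also far higher in heart than in liver. The sequences are from RefSeq, build GRCm38.p6, read 5′ to 3′ towards the gene. Nppa spans chr4:148000472-148000721, Nppb spans chr4:147985650-147985899 and Corin spans chr5:72504541-72504790 on the minus strand. Capitals mark the searched motifs on either strand. The letters searched were TATAAA for the TATA box and GATAA for the core site of GATA factors. They were AAGTG for the core site of NKX2-5 and GGTGTGA for the half-site of T-box factors, and no matches overlapped.
Nppa: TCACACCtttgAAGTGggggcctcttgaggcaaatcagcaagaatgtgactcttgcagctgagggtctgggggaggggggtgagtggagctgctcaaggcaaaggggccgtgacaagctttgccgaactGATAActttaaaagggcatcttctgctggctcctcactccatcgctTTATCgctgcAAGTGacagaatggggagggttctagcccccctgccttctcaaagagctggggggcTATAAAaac
Nppb: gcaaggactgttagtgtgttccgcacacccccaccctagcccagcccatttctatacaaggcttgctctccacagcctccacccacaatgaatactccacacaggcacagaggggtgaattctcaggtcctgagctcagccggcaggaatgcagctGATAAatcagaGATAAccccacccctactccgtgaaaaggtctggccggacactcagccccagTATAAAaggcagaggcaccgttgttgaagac
Corin: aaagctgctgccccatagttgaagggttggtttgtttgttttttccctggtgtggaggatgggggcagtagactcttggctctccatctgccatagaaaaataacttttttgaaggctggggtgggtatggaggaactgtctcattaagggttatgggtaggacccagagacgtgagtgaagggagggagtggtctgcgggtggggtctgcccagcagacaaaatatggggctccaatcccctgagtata

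The Nppa window held 1 TATA box, 2 GATA cores, 2 NKX2-5 cores and 1 T-box half-site. The Nppb window held 1 TATA box and 2 GATA cores. The RefSeq start of Nppb, 147985900, lies 112 bases inside the model used for its exon length, so that part of its window is transcribed in that model. Every Nppb match lies in that part, with the GATA cores 94 and 83 bases and the TATA box 31 bases before the RefSeq start. The TATA box of Nppa begins 9 bases before its RefSeq start. None of the searched letters occurred in the Corin window, nor in those of Npr1, Npr2 and Npr3. Nppc had 1 TATA box, and 1 of 2 Furin starts had 1 TATA box and 4 NKX2-5 cores. Of 32851 RefSeq promoter windows of the same length, 12.4% held the TATA box, 22.6% a GATA core, 40.7% an NKX2-5 core and 3.33% a T-box half-site. A TATA box together with 2 or more GATA cores, as in Nppa and Nppb, occurred in 0.938% of windows. A match of letters is a description of the sequence and does not show that a factor binds there.

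Heart and liver differed sharply in the peptides, and less in their receptors. Both peptide genes and Corin were far higher in heart than in liver, Npr3 was higher in heart, and Npr1 and Furin were lower in heart than in liver. The levels are CPM on library sizes scaled over all 16 libraries, so that they can be set side by side across tissues. The smaller differences depend on that scaling. On protein-coding counts, Npr1 was at 11.9 to 20.3 CPM in WT hearts and 15.9 to 22.3 CPM in WT livers. Furin was at 61.2 to 80.2 CPM in WT hearts and 73.1 to 109.9 CPM in WT livers. In QKO mice neither gene overlapped between the tissues on that scale. In QKO mice 6 of the 7 genes tested passed an adjusted p of 0.05 between heart and liver, 4 higher and 2 lower in heart. Of all genes tested 74.3% passed, 37.2% higher and 37.1% lower. In WT mice it was the same 6 of 7, with 4 higher and 2 lower, against 72.5% of all genes, 35.6% higher and 36.9% lower. These counts are close to the background, and the sizes carry the description.

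Nppa counts summed to 5255 over the 4 QKO hearts and to 9 over the 4 QKO livers, a ratio of rates of 951 (95% counting interval 501 to 2082). In WT mice the sums were 2712 in heart and 3 in liver, a ratio of 1474 (504 to 7153). The intervals cover counting error only. For Nppb the sums were 6646 in heart and 4 in liver of QKO mice, a ratio of 2707 (1057 to 9940). In WT mice they were 7380 in heart and 11 in liver, a ratio of 1094 (611 to 2193). The heart-enriched pattern of both peptides was thus present in either genotype, with no overlap between heart and liver libraries.

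Corin, the membrane serine protease that cuts pro-ANP, averaged 96.7 ± 11.3 CPM in heart and 0.296 ± 0.134 CPM in liver of QKO mice (SD, n = 4 each). In WT mice it averaged 96.3 ± 3.47 CPM in heart and 0.394 ± 0.132 CPM in liver. The log2 difference of heart over liver was 8.33 ± 0.25 in QKO mice and 7.92 ± 0.23 in WT mice (SE, edgeR adjusted p 1.33e-11 and 1.10e-09). Furin, the convertase of the secretory pathway that can cut pro-BNP, averaged 24.5 ± 1.56 CPM in heart and 46.0 ± 2.54 CPM in liver of QKO mice. In WT mice it averaged 23.9 ± 0.377 CPM in heart and 38.1 ± 4.95 CPM in liver. Its log2 difference was -0.88 ± 0.10 in QKO mice and -0.66 ± 0.11 in WT mice (edgeR adjusted p 3.86e-06 and 0.000268).

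Among the receptors, Npr3, the clearance receptor without a cyclase domain, averaged 11.6 ± 0.406 CPM in heart and 3.55 ± 1.01 CPM in liver of QKO mice. In WT mice it averaged 12.98 ± 3.21 CPM in heart and 2.59 ± 0.556 CPM in liver. Its log2 difference of heart over liver was 1.73 ± 0.18 in QKO and 2.33 ± 0.21 in WT mice (edgeR adjusted p 1.93e-06 and 1.68e-06). Npr1, the cyclase receptor of ANP and BNP, was lower in heart, with a log2 difference of -0.67 ± 0.13 in QKO and -0.47 ± 0.14 in WT mice (edgeR adjusted p 0.000466 and 0.0108). Npr2, the cyclase receptor of CNP, had a difference of -0.25 ± 0.13 in QKO mice and -0.29 ± 0.20 in WT mice, neither of which passed (edgeR adjusted p 0.101 and 0.217). Without WT liver 4, in which Npr2 was at 9.71 CPM against 17.4 to 20.3 CPM in the other WT livers, its WT difference was -0.49 and passed (edgeR adjusted p 0.00173). Its QKO difference passed without QKO liver 4 (-0.34, edgeR adjusted p 0.0285) and without QKO heart 1 (-0.33, edgeR adjusted p 0.0487). On protein-coding counts Npr2 was at 37.9 to 43.1 CPM in QKO hearts, inside the 33.6 to 47.8 CPM of QKO livers.

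**Figure D1:**
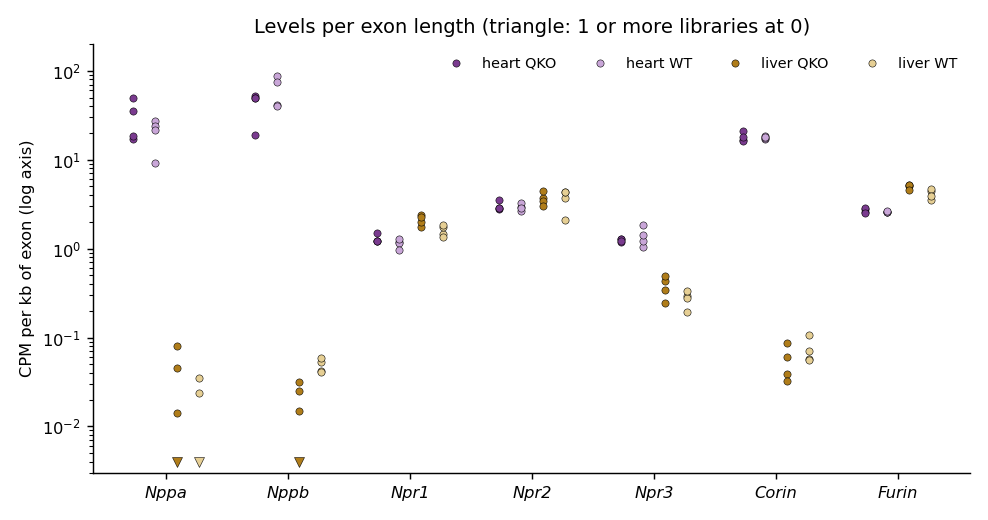
Level of each gene in every library as CPM per kb of exon (log axis), by tissue and genotype, with triangles for groups that hold 1 or more libraries at 0. Nppa, Nppb and Corin stand high in heart and low in liver, where Nppa and Nppb have 0 to 6 counts per library, Npr3 is higher in heart, and Npr1 and Furin are higher in liver.

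Dividing by exon length allowed the genes to be ordered. In QKO hearts the order by mean CPM per kb was Nppb (42.6), Nppa (30.2), Corin (17.9), Npr2 (3.02), Furin (2.67), Npr1 (1.29) and Npr3 (1.24). In WT hearts it was Nppb (60.8), Nppa (20.5), Corin (17.8), Npr2 (2.94), Furin (2.61), Npr3 (1.38) and Npr1 (1.15). In either genotype the libraries of Nppa overlapped with those of Corin, Npr2 with Furin, and Npr1 with Npr3. Nppb lay above Nppa without overlap in WT hearts, while in QKO hearts their ranges overlapped. Nppa shares 61.5% of its exonic bases with the antisense gene Gm13054, described below, while Nppb overlaps no other gene. Their order may therefore depend on how shared reads were counted.

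In QKO livers Furin led (5.01 CPM per kb), followed by Npr2 (3.67), Npr1 (2.09), Npr3 (0.379) and Corin (0.0548), with no overlap between neighbours in that order. WT livers had the same order of these genes, with Furin at 4.15, Npr2 at 3.62, Npr1 at 1.61, Npr3 at 0.276 and Corin at 0.0729, and only Furin and Npr2 overlapped. 

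As a share of the 3 receptors, per kb, the clearance receptor was larger in heart. Npr3 made up 22.4% ± 1.45 of the summed receptor level in QKO hearts and 6.18% ± 1.80 in QKO livers (SD, n = 4 each). In WT mice it made up 25.2% ± 6.03 in heart and 5.06% ± 0.464 in liver. Npr2 held the largest share of the 3 receptors in every group, at 54.4% ± 1.03 in QKO hearts, 53.8% ± 4.35 in WT hearts, 59.5% ± 6.03 in QKO livers and 64.9% ± 5.18 in WT livers. Nppc, the gene of the Npr2 ligand, was not detectable at this depth, with 1 count in QKO heart 3 and none in the other 15 libraries. A count of 0 allows up to 3 counts in a library, which is up to 0.0348 to 0.105 CPM in QKO hearts, 0.0340 to 0.124 CPM in WT hearts, 0.0345 to 0.0585 CPM in QKO livers and 0.0324 to 0.0614 CPM in WT livers.

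Loss of the reductases came with no called change in any of the 7 genes tested in heart, and Nppc was too low to test. Of 16974 genes tested, 28 passed an adjusted p of 0.05, or 0.165% (0.0707% higher, 0.0943% lower in QKO), and 0 of the 7 tested genes of the system were among them. At an unadjusted p under 0.05 the counts were 1220 genes and 0 of 7 members. DESeq2 and limma-voom also called 0 of the 7.

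Nppa was at 14.9, 16.1, 42.8 and 30.8 CPM in QKO hearts 1 to 4, against 23.5, 20.7, 18.8 and 7.88 CPM in WT hearts 1 to 4. QKO hearts 3 and 4 lay above every WT heart and QKO hearts 1 and 2 lay inside the WT range, so the groups overlapped. The log2 fold change was 0.60 ± 0.34 (SE, 95% interval -0.14 to 1.33, edgeR adjusted p = 0.738). It was 0.26 without QKO heart 3, 0.24 without both hearts numbered 4 and 0.78 without QKO heart 1.

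Nppb was at 14.8, 40.8, 38.8 and 38.8 CPM in QKO hearts 1 to 4, against 31.8, 69.0, 57.9 and 31.1 CPM in WT hearts 1 to 4. QKO heart 1 lay below all other hearts, and the other QKO hearts lay between the lower and the higher pair of WT hearts. The log2 fold change was -0.49 ± 0.29 (95% interval -1.12 to 0.14, edgeR adjusted p = 0.738). It was -0.26 without QKO heart 1 and -0.66 without WT heart 4. The estimates for the peptides had opposite signs, and both intervals of this fit included 0. With no filter on low counts they were 0.60 ± 0.20 for Nppa and -0.48 ± 0.17 for Nppb (edgeR adjusted p 0.364 and 0.502). With the replicate number as a block Nppb was at -0.51 ± 0.16 (edgeR adjusted p 0.366). The width of the intervals thus depended on the processing.

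**Figure D2:**
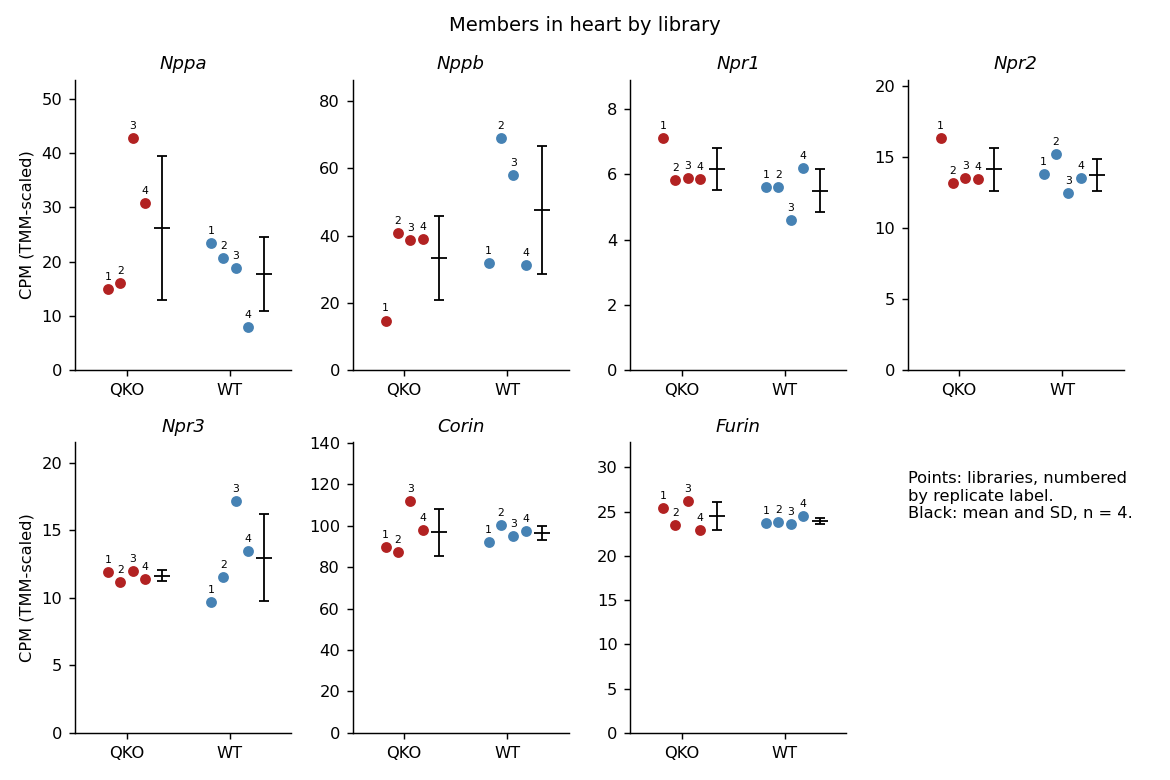
CPM of 7 genes in each heart library (points, numbered by replicate), QKO left of WT, with mean and SD (n = 4). The QKO and WT libraries overlap in every panel, and QKO heart 1 is the lowest for Nppb and the highest for Npr1 and Npr2.

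The count ratio of Nppa to Nppb, which does not depend on library size, was 1.01, 0.394, 1.10 and 0.794 in QKO hearts 1 to 4, against 0.739, 0.300, 0.326 and 0.253 in WT hearts 1 to 4. It was higher in QKO hearts on average but WT heart 1 lay above QKO heart 2. The mean log2 ratio was -0.38 ± 0.67 in QKO hearts and -1.44 ± 0.69 in WT hearts, a difference of 1.06 (two-sided exact permutation p = 0.0571, adjusted p = 0.229 over the 4 ratios tested, smallest possible p 0.0286). The difference did not pass the threshold.

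The libraries varied in atrial transcripts. Myl7, the atrial myosin light chain, was at 10.6, 3.37, 0.133 and 0.0580 CPM in QKO hearts 1 to 4, against 0.239, 0, 15.2 and 2.61 CPM in WT hearts 1 to 4. Sln, another atrial transcript, was at 3.00, 0.460, 0 and 0.0696 CPM in QKO hearts and at 0.0239, 0.0415, 2.76 and 0.499 CPM in WT hearts. The 8 atrial markers summed to 20.4 to 86.8 CPM in QKO hearts and 20.8 to 112.7 CPM in WT hearts on protein-coding counts, and all 8 were detected in both groups. The same sum was 24.8 to 41.7 CPM in QKO livers and 30.9 to 35.8 CPM in WT livers, so it does not mark atrium alone. QKO heart 1 and WT heart 3 were the highest for Myl7.

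The most Nppa was not found where these markers were highest. The libraries with the most Nppa, QKO hearts 3 and 4, had the least Myl7 of the QKO group, and their Nppa count was 4.997 and 4.64 times the summed atrial marker count. That ratio was 0.453 and 1.05 in QKO hearts 1 and 2, against 3.17, 2.57, 0.433 and 0.602 in WT hearts 1 to 4. The summed marker count was 322 in QKO heart 3, with 82 from Dkk3, 75 from Gja5 and 133 from Nr2f2. It was 573 in QKO heart 4, with 116, 191 and 200 from these genes, which were also measured in liver. The ratio therefore does not set Nppa against atrial transcripts alone. The log2 ratio averaged 0.87 ± 1.69 in QKO hearts and 0.27 ± 1.45 in WT hearts (exact permutation p = 0.543, adjusted p = 0.724). Without QKO heart 1 and WT heart 3, a choice made after the data were seen, the log2 fold change of Nppa was 0.82 (edgeR adjusted p = 0.676) and that of Nppb was -0.14 (edgeR adjusted p = 0.916).

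**Figure D3:**
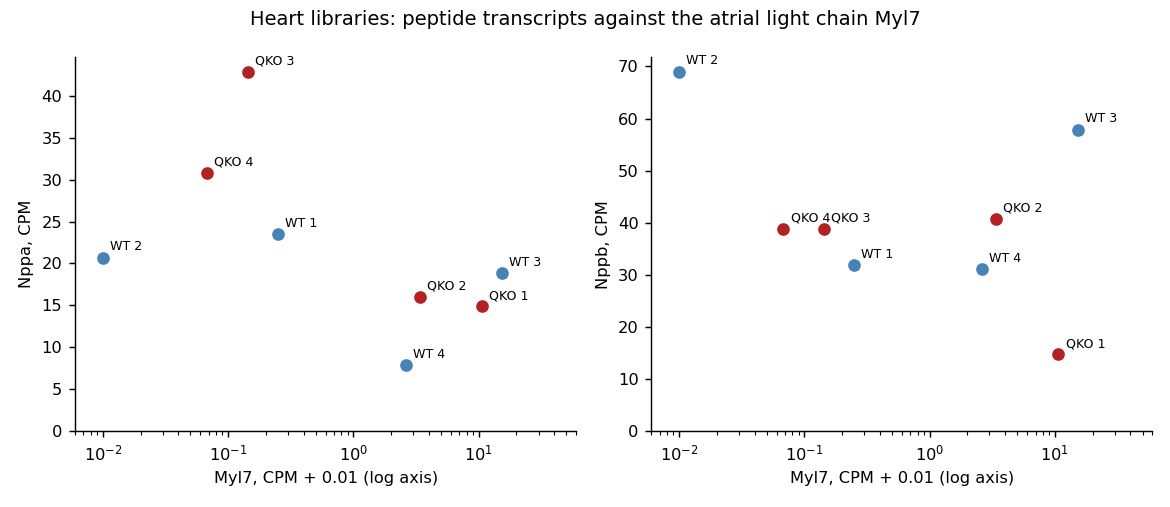
Nppa (left) and Nppb (right) CPM against the CPM of the atrial light chain Myl7 plus 0.01 (log axis) in the 8 hearts, QKO in red and WT in blue. Nppa is highest in QKO heart 3, where Myl7 is 0.133 CPM, and Nppb is lowest in QKO heart 1, where Myl7 is 10.6 CPM.

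Part of the Nppa count may be shared with an antisense gene. Gm13054 lies on the opposite strand and shares 532 exonic bases, or 61.5% of the 865 exonic bases of Nppa. Its count was 0.733, 0.763, 0.720 and 0.759 of the Nppa count in QKO hearts 1 to 4, against 0.695, 0.749, 0.720 and 0.788 in WT hearts. The ratio was nearly constant while Nppa itself varied between libraries. Whether the counting used strand is not given in the sources used here, so reads of the sense and antisense genes cannot be told apart. Antisense genes also overlap Npr1 (Gm16048, 0.134 to 0.231 of its count in heart), Npr2 (Gm12473, 0.0902 to 0.159) and Corin (Gm20647, 0.0732 to 0.0882).

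The receptors were steadier than the peptides in heart. Npr1 was at 7.12, 5.81, 5.88 and 5.84 CPM in QKO hearts 1 to 4, against 5.61, 5.60, 4.59 and 6.19 CPM in WT hearts 1 to 4. Only QKO heart 1 lay above the WT range, and on protein-coding counts it lay inside it (18.8 CPM, against 11.9 to 20.3 CPM). The log2 fold change was 0.15 ± 0.11 (95% interval -0.10 to 0.39, edgeR adjusted p = 0.797), and 0.0743 without QKO heart 1 or without WT heart 3.

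Npr2 was at 16.3, 13.1, 13.5 and 13.5 CPM in QKO hearts, against 13.8, 15.2, 12.4 and 13.5 CPM in WT hearts. The other QKO hearts fell within the WT range, and the log2 fold change was 0.04 ± 0.09 (95% interval -0.15 to 0.23, edgeR adjusted p = 0.945). Npr3 was at 11.9, 11.2, 11.99 and 11.4 CPM in QKO hearts, against 9.71, 11.5, 17.2 and 13.5 CPM in WT hearts. The 4 QKO hearts lay close together inside the wider WT range, with a log2 fold change of -0.16 ± 0.14 (95% interval -0.45 to 0.13, edgeR adjusted p = 0.816), and it was -0.0048 without WT heart 3 and -0.28 without WT heart 1 (edgeR adjusted p 0.997 and 0.826).

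The count ratio of Npr3 to Npr1 sets the clearance receptor against the signalling receptor of ANP and BNP. It was 1.67, 1.92, 2.04 and 1.95 in QKO hearts, against 1.73, 2.06, 3.74 and 2.18 in WT hearts. The log2 ratio averaged 0.92 ± 0.12 in QKO hearts and 1.21 ± 0.48 in WT hearts, a difference of -0.30 (exact permutation p = 0.257, adjusted p = 0.514). WT heart 3 was the highest of the 8, and without it the difference was -0.0663 (exact permutation p = 0.514). Without WT heart 1, the lowest of the WT hearts, it was -0.44, with the lowest exact permutation p possible for 4 against 3 libraries (0.0286).

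The proteases had the narrowest intervals of the genes. Corin was at 89.8, 87.1, 112.1 and 98.0 CPM in QKO hearts, against 92.2, 100.4, 95.1 and 97.5 CPM in WT hearts. Furin was at 25.4, 23.5, 26.2 and 22.9 CPM in QKO hearts, against 23.7, 23.9, 23.6 and 24.5 CPM in WT hearts. The log2 fold changes were 0.01 ± 0.08 for Corin (95% interval -0.17 to 0.18) and 0.03 ± 0.06 for Furin (95% interval -0.11 to 0.17), with edgeR adjusted p of 0.993 and 0.936. The intervals of Nppa and Nppb were the widest in heart.

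**Figure D4:**
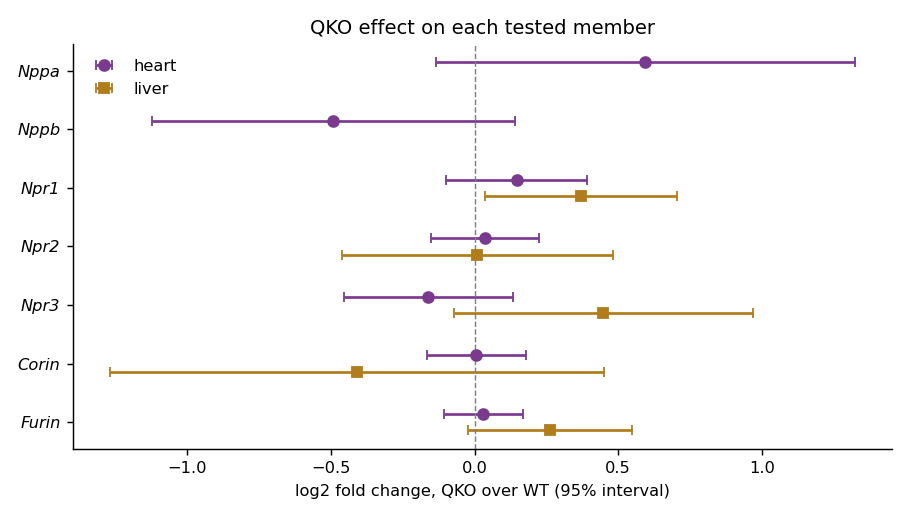
Log2 fold change of QKO over WT for each tested gene in heart (circles) and liver (squares), with 95% intervals from the SE and the degrees of freedom of the test. Every heart interval includes 0, and in liver the interval of Npr1 (0.04 to 0.70) does not, although its adjusted p is 0.9997.

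In liver no gene of the system passed the test in QKO over WT, and the estimates of Npr1, Npr3 and Furin lay above 0. Of 17738 genes tested, 15 passed (0.0846%, with 0.0564% higher and 0.0282% lower in QKO), and 0 of the 5 tested genes of the system did. The unadjusted counts under 0.05 were 583 genes and 1 of the 5, Npr1. DESeq2 and limma-voom called 0 of the 5. All 5 had an edgeR adjusted p of 0.9997.

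Npr1 was at 8.39, 9.47, 11.3 and 10.9 CPM in QKO livers 1 to 4, against 7.04, 8.47, 8.74 and 6.52 CPM in WT livers 1 to 4. QKO livers 2 to 4 lay above every WT liver and QKO liver 1 lay within the WT range. The log2 fold change was 0.37 ± 0.15 (95% interval 0.04 to 0.70, unadjusted p = 0.0327 by edgeR). It ranged from 0.30 to 0.46 as each library was left out in turn, and was 0.38 without WT livers 3 and 4.

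Npr3 was at 3.19, 4.07, 2.32 and 4.63 CPM in QKO livers, against 2.76, 2.62, 3.15 and 1.83 CPM in WT livers. QKO livers 1, 2 and 4 lay above every WT liver and QKO liver 3 below all but WT liver 4. The log2 fold change was 0.45 ± 0.24 (95% interval -0.07 to 0.97). Furin was at 46.4, 47.1, 48.2 and 42.4 CPM in QKO livers, against 32.3, 41.2, 43.1 and 35.8 CPM in WT livers, and the groups overlapped only between QKO liver 4 and WT liver 3 (log2 0.26 ± 0.13, 95% interval -0.02 to 0.55).

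Npr2 was at 17.5, 20.8, 15.9 and 14.2 CPM in QKO livers, against 17.4, 20.2, 20.3 and 9.71 CPM in WT livers (log2 0.01 ± 0.22). Corin was at 0.471, 0.209, 0.176 and 0.328 CPM in QKO livers, against 0.307, 0.583, 0.302 and 0.383 CPM in WT livers (log2 -0.41 ± 0.39). Both genes overlapped widely between genotypes, and the Corin value was -0.16 without WT liver 2 and -0.72 without QKO liver 1. Nppa had 0, 1, 2 and 6 counts in QKO livers 1 to 4, against 1, 0, 0 and 2 counts in WT livers, and Nppb had 0, 2, 1 and 1 counts in QKO livers, against 2, 3, 3 and 3 counts in WT livers. Summed, the QKO over WT ratio of rates was 2.93 for Nppa (95% counting interval 0.730 to 16.8) and 0.355 for Nppb (0.0824 to 1.20), which this depth does not set apart from no difference.

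The ratio of Npr3 to Npr1 in liver was 0.381, 0.430, 0.206 and 0.426 in QKO livers, against 0.393, 0.310, 0.361 and 0.281 in WT livers. QKO liver 3 was the lowest of the 8. The log2 ratio averaged -1.53 ± 0.51 in QKO livers and -1.59 ± 0.22 in WT livers, a difference of 0.05 (exact permutation p = 0.857, adjusted p = 0.857). The endothelial markers, which mark a known site of Npr1, summed to 299.9 to 454 CPM in QKO livers and 284 to 359 CPM in WT livers on protein-coding counts, and all 7 were detected. In QKO over WT livers all 7 lay above 0, as Npr1 did, with a median log2 change of 0.21 and 0 that passed (Eng 0.49, Kdr 0.27). Their part in the Npr1 values was not tested.

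**Figure D5:**
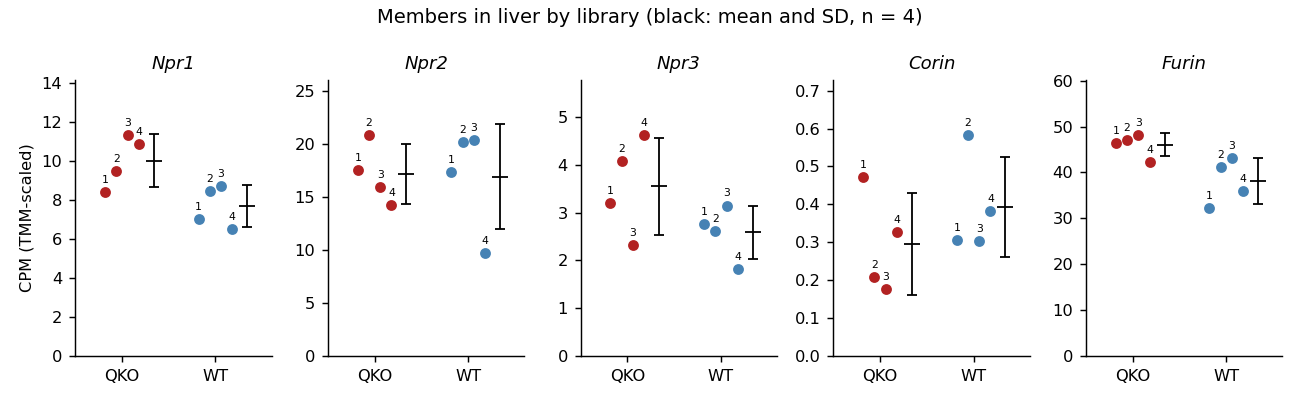
CPM of 5 genes in each liver library (points, numbered by replicate), QKO left of WT, with mean and SD (n = 4). For Npr1, QKO livers 2 to 4 lie above all WT livers, and for Furin only QKO liver 4 lies below a WT liver.

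No gene of the system had a called difference between its heart and its liver effect. The interaction term was tested on 19587 genes, of which 1 passed (0.00511%), and 0 with the animal as a replicate block. The members called were 0 of 7. The difference of the QKO effect, heart minus liver, was -0.62 ± 0.29 for Npr3 (95% interval -1.22 to -0.02, unadjusted p = 0.0445 by edgeR, adjusted p = 0.9999). For Npr1 it was -0.22 ± 0.19, for Furin -0.24 ± 0.14 and for Corin 0.40 ± 0.32, none with an unadjusted p under 0.05. The Corin difference was 0.12 without WT liver 2 and 0.72 without QKO liver 1. For Nppa the difference was -0.80 ± 1.53 and for Nppb 0.86 ± 1.20. Both had only 0 to 6 counts per liver library, so the test cannot decide whether their heart and liver effects differ.

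The signalling genes downstream of the receptors were measured alongside. Of 24 genes of cyclic GMP signalling, 21 were tested in heart and 0 passed, with 12 above and 9 below 0 and a median log2 change of 0.02 (median of all genes -0.0013). Phospholamban (Pln), a brake on the calcium pump of heart muscle, was the most abundant at 1942 ± 114 CPM in QKO hearts and 1911 ± 151 CPM in WT hearts. The phosphodiesterase Pde3a followed at 73.8 ± 7.55 CPM in QKO hearts and 66.0 ± 6.61 CPM in WT hearts. Rgs2, a regulator of G protein signalling and a known substrate of the cGMP-dependent kinase, had the smallest p of the list and is named for its value, at 16.3 ± 1.57 CPM in QKO hearts and 10.7 ± 2.21 CPM in WT hearts (log2 0.62 ± 0.12, edgeR adjusted p = 0.102). In liver 20 were tested and 0 passed.

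Of 9 genes that degrade the peptides or compete for Npr3, 6 were tested in each tissue and 1 passed, Ide. This insulin-degrading enzyme, which also cuts ANP, averaged 31.6 ± 1.90 CPM in QKO hearts and 64.9 ± 4.68 CPM in WT hearts (log2 -1.04 ± 0.07, edgeR adjusted p 2.61e-06). In liver it averaged 28.4 ± 2.58 CPM in QKO mice and 65.3 ± 10.5 CPM in WT mice (log2 -1.21 ± 0.15, edgeR adjusted p 0.00615). Neprilysin (Mme), the main peptidase of ANP, averaged 5.50 ± 0.671 CPM in QKO hearts and 5.84 ± 0.630 CPM in WT hearts and did not pass. Ece1, a related peptidase, averaged 27.6 ± 1.16 CPM in QKO hearts and 29.0 ± 2.49 CPM in WT hearts.

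Of 11 other convertases and relatives of corin, 8 were tested in heart and 9 in liver, and 0 passed in either. Pcsk6, a convertase described in mice as the activator of corin, averaged 32.1 ± 5.67 CPM in QKO hearts and 34.1 ± 5.88 CPM in WT hearts. Mbtps1 (site-1 protease) averaged 16.5 ± 1.34 CPM in QKO hearts and 16.1 ± 1.04 CPM in WT hearts. Among 9 secretory granule genes 3 were tested and 0 passed in heart, led by the amidating enzyme Pam, which is abundant in atrial granules (309.5 ± 17.0 CPM in QKO hearts, 289 ± 20.8 CPM in WT hearts). Cpe, the carboxypeptidase that trims prohormones, averaged 31.2 ± 2.83 CPM in QKO hearts and 32.6 ± 5.02 CPM in WT hearts.

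Of 19 transcriptional regulators of Nppa and Nppb, 18 were tested in heart and 0 passed, with 9 above and 9 below 0. Mef2a was the most abundant, at 84.4 ± 15.6 CPM in QKO hearts and 86.7 ± 6.10 CPM in WT hearts, before Tead1, at 61.3 ± 2.72 CPM in QKO hearts and 66.4 ± 4.86 CPM in WT hearts. For the factors whose cores were searched above, Gata4 averaged 24.1 ± 2.78 CPM in QKO hearts and 27.8 ± 1.87 CPM in WT hearts, Nkx2-5 averaged 14.2 ± 0.499 CPM in QKO hearts and 13.7 ± 0.794 CPM in WT hearts, and Tbx5 averaged 7.75 ± 0.512 CPM in QKO hearts and 6.73 ± 0.658 CPM in WT hearts. Their edgeR adjusted p values were 0.660, 0.906 and 0.716.

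Among 11 load-responsive and fetal cardiac genes, which often rise together with Nppa and Nppb in stressed heart, 1 passed in heart. Myh7, the slow myosin heavy chain, averaged 694 ± 41.6 CPM in QKO hearts and 147 ± 20.3 CPM in WT hearts (log2 2.24 ± 0.10, edgeR adjusted p 3.23e-08). Of the others, Xirp2, a protein of the intercalated disc, averaged 452 ± 36.0 CPM in QKO hearts and 468 ± 61.7 CPM in WT hearts. The list median was -0.05, with 5 above and 6 below 0, and 6 of the 11, Myh7 included, had an unadjusted p under 0.05, against 1220 of all 16974 genes tested. Named for their values, the skeletal actin gene Acta1 averaged 75.0 ± 28.4 CPM in QKO hearts and 36.8 ± 15.02 CPM in WT hearts (log2 1.04 ± 0.26, edgeR adjusted p = 0.314), and the smooth muscle actin gene Acta2 averaged 27.7 ± 9.72 CPM in QKO hearts and 15.9 ± 7.07 CPM in WT hearts (log2 0.82 ± 0.30, edgeR adjusted p = 0.660). The other 3 were Fhl1 (log2 0.17), Postn (-0.47) and Timp1 (-1.04). The 7 genes around Nppa and Nppb on chromosome 4 were all above 0 in heart (median 0.15), and 0 passed. In liver 4 of the 7 were above and 3 below 0 (median 0.01), and 0 passed. The most abundant of the 7 in heart was the mitochondrial fusion gene Mfn2, at 203 ± 3.16 CPM in QKO hearts and 192 ± 12.4 CPM in WT hearts. The collagen lysyl hydroxylase Plod1 followed, at 35.3 ± 2.56 CPM in QKO hearts and 31.4 ± 3.43 CPM in WT hearts.

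Genes most alike to each member across the 8 hearts were found by Pearson's r of log2 CPM after removal of the group means. They were Immp2l (r = 0.97), Taf11 (0.96) and Farp1 (0.95) for Nppa, and Gm45902 (0.98), Aph1b (0.97) and Fbxo34 (0.97) for Nppb. For the receptors they were Zfp429, Slc28a2 and Pink1 (0.98 each) for Npr1, Ssr1 and Ranbp17 (0.98 each) and Bhlhb9 (0.97) for Npr2, and Efnb2 (0.99), Btg1 (0.98) and Foxp3 (0.98) for Npr3. Corin was closest to Pigm (0.99), Vipr2 and Tiam2 (0.98 each), and Furin to Dnase1, Osbpl5 (0.98 each) and Slit3 (0.96). With 8 libraries and all tested protein-coding genes searched, such values describe these libraries alone.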

How the data were processed

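Gene counts were deposited by the authors as 1 table of raw counts, with 16 columns and 48709 Ensembl genes. Libraries were total RNA depleted of ribosomal RNA, made with a stranded kit and read as paired 75-base reads, per the labels' protocols. HISAT2, featureCounts and the build mm10 are named in the submitters' processing notes, without versions. The strand setting, the annotation release and any handling of multimapping reads are not given in the sources used here. IDs were matched to symbols without their version, which worked for 48349 and left 360 unmatched.

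Counts were tested with edgeR 4.0.16 in R 4.3.3 (TMM, default filter by group, quasi-likelihood F test), with Benjamini-Hochberg adjustment over all tested genes and a threshold of 0.05. Levels are CPM on TMM library sizes over all 16 libraries, and levels per length use the union of exons. Marker lists are summed as CPM of protein-coding counts. Log2 count ratios (0.5 added to each count) were compared by exact permutation over 70 relabellings. DESeq2 1.42.0, limma-voom 3.58.1, other filters, scalings and left-out libraries were alternatives. Scripts were tested on simulated data. The changed genes there were drawn at random above a minimum mean count. Of 100 genes given a log2 change of 1 there, 77 were called in heart, 47 in liver and 28 for the difference between tissues. For a log2 change of 2 these were 99, 89 and 76. A change that was not called can therefore be present. These shares are not specific to Nppa and Nppb, whose SE in heart (0.34 and 0.29) was the largest of the members tested.

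The named genes are the members, the members of fixed lists that passed or were the 2 most abundant in heart, genes overlapping a member, the 4 targeted genes, and 3 genes most alike to each member. Other genes are named for their role or their value, chosen after values were seen. The members and lists were chosen with earlier results of these data known. A heart and a liver with the same animal number come from 1 animal, and their deviations from the group means correlated at 0.0471 to 0.162, so the animal was a block in an alternative of each comparison across tissues. The 24 pairs of replicates all differed by far more than sampling noise.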

Additional observations from a re-analysis of the deposited data

Results flagged for a closer look

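In 4 of 32 groups of 4 libraries tested, 1 library stood apart from the other 3 by Dixon's criterion at the 95% level. Chance flags about 1 in 20 groups. QKO heart 1 gave 3 of the 4. Its Nppb was 14.8 CPM, against 38.8 to 40.8 CPM in the other QKO hearts. Its Npr1 was 7.12 CPM, against 5.81 to 5.88 CPM, and its Npr2 was 16.3 CPM, against 13.1 to 13.5 CPM. On protein-coding counts its Nppb still stood apart, at 38.9 CPM against 114.7 to 118.9 CPM. Its receptors stood less apart there, with Npr1 at 18.8 CPM against 16.8 to 17.9 CPM. Npr2 was at 43.1 CPM against 37.9 to 41.2 CPM, and WT heart 4 was higher for both receptors (20.3 and 44.2 CPM). This library had 10.9 M protein-coding counts (M, 1000000), the fewest of the QKO hearts, and the highest Myl7 of them, 10.6 CPM. The part of either in these values was not tested.

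The other was the log2 ratio of Npr3 to Npr1 in QKO liver 3, at -2.28, against -1.39 to -1.22 in the other QKO livers. That library held 119 Npr3 counts and 581 Npr1 counts.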

How the results depend on the processing

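The members called stayed at 0 in heart, in liver and for the difference between tissues under every alternative run, and at 6 between heart and liver, or 7 with Npr2 without the libraries named in the report. The count of all genes called depended more on the choices. In heart (28 genes) it was 64 with DESeq2, 102 with no filter, 50 with the replicate block, 16 with all 16 libraries in 1 fit, and 18 to 25 with 1 library left out. In liver (15) it was 50 with DESeq2, 9 on protein-coding genes alone and 44 with all 16 libraries in 1 fit. For the difference (1) it was 2 with no filter, 0 with the animal block, 5 without WT livers 3 and 4, and 1 to 3 with 1 library left out. The causes were not tested.

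Values near 0 changed sign. Corin in heart was -0.00046 with the replicate block and ran from -0.0728 to 0.0518 with 1 library left out. Npr2 ran from -0.0386 to 0.0819 in heart, from -0.18 to 0.12 in liver and from -0.0776 to 0.21 for the difference. It was -0.0794 in heart without QKO heart 1 and WT heart 3, -0.13 in liver without WT livers 3 and 4, and -0.0268 for the difference with the animal block. Furin in heart ran from -0.0044 to 0.0660, and the Nppa difference from -1.73 to 0.21. The Npr3 to Npr1 ratio ran from -0.44 to -0.0663 in heart and from -0.0499 to 0.31 in liver.

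Same-numbered QKO and WT libraries correlated at 0.124, 0.142, 0.0524 and 0.433 in heart (3 of 4 over 0.1) and at -0.107 to 0.145 in liver. The numbers were not taken as pairs, since not every pair was over 0.1, and the block changed no call of a member. Permuted within numbers, the Nppa to Nppb ratio had an exact p of 0.125, the smallest that 4 numbers allow. Nppa and Nppb in liver, and Nppc in both tissues, were limited by depth.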

Other observations

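Other regulators of blood volume and vessel tone were measured in the same libraries. Of 14 such genes, 12 were tested in heart and 0 passed in QKO over WT, with 5 above and 7 below 0 and 0 with an unadjusted p under 0.05 in edgeR. The receptor components of adrenomedullin, a peptide that relaxes vessels, were the most abundant of them. Calcrl averaged 20.8 ± 1.57 CPM in QKO hearts and 21.3 ± 2.35 CPM in WT hearts (SD, n = 4 each), and Ramp2 averaged 18.4 ± 1.29 CPM in QKO hearts and 17.1 ± 0.858 CPM in WT hearts. Angiotensinogen (Agt), the liver-made precursor of angiotensin, averaged 276 ± 38.9 CPM in QKO livers and 242 ± 34.9 CPM in WT livers, and did not pass.

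None of the other 5 membrane guanylyl cyclases reached the level needed for a test in heart. In liver 1 did, Gucy2c, the receptor of guanylin, at 0.987 ± 0.439 CPM in QKO mice and 0.804 ± 0.436 CPM in WT mice.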
